A study of Mus musculus with 19 samples.

Results

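The protein kinase C genes were examined in wild-type mouse hippocampal slices that had been given the mGluR1/5 agonist DHPG or vehicle. The 8 genes were taken by symbol from the RNA-seq and ribosome profiling tables (Prkca, Prkcb, Prkcd, Prkce, Prkch, Prkcq, Prkci and Prkcz), out of 20436 genes listed in each, and all 8 were found in both tables. They were chosen by the measured RNA and RPF values of Prkcd, the gene for the delta isoform, which stood out between DHPG and basal slices. The values of that comparison, and whether they passed its thresholds, are therefore a description for these genes and support nothing. The basal ratio of footprints to RNA, which does not use the comparison of DHPG with basal, was tested. Its basal libraries are also part of that comparison, so for Prkcd it is not independent of the choice.

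Hippocampal slices of wild-type male mice, aged 28 to 42 days in the sample labels, received DHPG at 100 µM or ACSF (vehicle, here basal) for 5 min and were then put into cycloheximide at 100 µg/ml, which holds ribosomes in place on the mRNA. Slices of several mice were pooled for each replicate, and slices of both treatments with the same replicate number were taken as a pair. RNA-seq gave 4 basal and 5 DHPG libraries and ribosome profiling gave 5 basal and 5 DHPG libraries, and DHPG replicate 5 lacked a basal partner in RNA. The RNA libraries held 4870813 to 7793244 counts each. Ribosome-protected fragments (RPFs), pieces of mRNA that a ribosome shields from nuclease, came to between 5692064 and 22092434 counts per library. The 8 genes together took 0.172% to 0.216% of the RNA counts and 0.124% to 0.137% of the RPF counts. Values are CPM, counts scaled to library size, with edgeR's TMM method within each assay. Slices hold many cell types, and in such bulk samples fewer cells of a type and less RNA per cell cannot be told apart.

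Protein kinase C enzymes are serine/threonine kinases that lie downstream of receptors coupled to Gq. Group I metabotropic glutamate receptors activate phospholipase C beta, which splits a membrane phosphoinositide into inositol trisphosphate, a trigger of calcium release, and diacylglycerol, which stays in the membrane. The conventional isoforms alpha (Prkca) and beta (Prkcb) respond to calcium and diacylglycerol, the delta (Prkcd), epsilon (Prkce), eta (Prkch) and theta (Prkcq) isoforms respond to diacylglycerol without calcium, and the atypical isoforms iota (Prkci) and zeta (Prkcz) respond to neither. In brain the Prkcz gene also gives a transcript with a shorter coding sequence that encodes the kinase domain alone, known as PKMzeta.

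The genes are spread over 8 chromosomes of the mm10 build in GENCODE. Prkca lies on chromosome 11 from 107933387 to 108343928 and Prkcb on chromosome 7 from 122288751 to 122634402. Prkcd lies on chromosome 14 from 30595354 to 30626210 and has 18 exons in the transcript with its longest coding sequence. Prkce lies on chromosome 17 from 86167785 to 86657919, Prkch on chromosome 12 from 73584796 to 73778185 and Prkcq on chromosome 2 from 11172108 to 11301222. Prkci lies on chromosome 3 from 30995747 to 31052959 and Prkcz on chromosome 4 from 155260129 to 155361361.

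Because these kinases are related, it matters whether a footprint can be assigned to one of them. The activation loop, where the upstream kinase PDK1 phosphorylates the enzymes, is among their most conserved stretches. The 30 coding bases that begin there, about the length of a ribosome footprint, are shown 5′ to 3′ from the GENCODE transcripts (in Prkcd, bases 1591 to 1620 of the coding sequence). Capitals mark the bases that differ from Prkcd, which is itself in lower case throughout.
Prkcd: acattctgcggcactcctgactacatcgcc
Prkcb: acattctgTggcactccGgactacatTgcT
Prkca: acCttctgTggGactccGgactacatTgcc
Prkce: acCttctgTggGactcctgactacatAgcT
Prkch: acCttctgcggTacAccCgactacatTgcc
Prkcq: acTttctgTggAactcctgactacatTgcT
Prkci: acTttctgcggcactccCAaTtacatTgcT
Prkcz: acTttTtgTggAacCccGAactaTatcgcc
Even at this conserved stretch every other gene differed from Prkcd at 4 (Prkcb) to 8 (Prkcz) of the 30 bases. The longest run that the whole coding sequences of Prkcd and another of the 8 genes had in common was 26 bases, with Prkcb (accatggtggagaagcgggtgctggc). Over the coding sequence without its ends, which is where RPFs were counted, none of the 2011 windows of 30 bases in Prkcd occurred in a transcript of another gene. The same held for Prkce, Prkch, Prkcq and Prkci, while Prkca and Prkcb had 9 windows in common. Prkcz stood apart, since 1147 of its 1687 coding windows (68%) also occurred in Prkcz2, annotated as a processed pseudogene, as did 33.3% of the 60-base windows of its transcript. The authors kept uniquely mapped reads, so the values of Prkcz are uncertain, and how many reads this removed was not tested.

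In basal slices the genes covered a wide range of levels, led by Prkcb, Prkce and Prkca or Prkcz, with Prkcd in the lower part of the order. Levels of different genes were compared per length, as CPM per kilobase of transcript for RNA and per kilobase of counted coding sequence for RPF. Prkcb, a conventional isoform abundant in forebrain neurons, had the highest RNA level at 234.6 ± 20.2 CPM per kb (SD, n = 4) and the highest RPF level at 265 ± 8.35 (SD, n = 5). Prkce, the calcium-independent epsilon isoform, followed in both assays with 117 ± 9.26 in RNA and 167 ± 7.42 in RPF. The conventional isoform Prkca held a different place in each assay, with an RNA level of 15.7 ± 1.82 and an RPF level of 112 ± 4.44 CPM per kb.

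Of the atypical isoforms, Prkcz had 105 ± 3.84 CPM per kb in RNA and 61.8 ± 3.44 in RPF, and Prkci, which acts in cell polarity complexes, had 10.1 ± 2.76 and 37.8 ± 1.27. Prkcd had 7.86 ± 1.72 CPM per kb in RNA and 14.7 ± 5.12 in RPF, the sixth place in both. Below it were Prkcq, best known from T cells, with 3.78 ± 0.317 and 5.38 ± 0.732, and Prkch, best known from epithelium, with 1.24 ± 0.163 and 0.819 ± 0.225. The ranges of neighbours in the order did not overlap, except in RNA for Prkce with Prkcz and for Prkci with Prkcd, whose order held in 3 of the 4 libraries. As a share of the summed level of the 8 genes, Prkcb made up 47.3% ± 0.830 in RNA and 39.8% ± 0.860 in RPF, and Prkcd made up 1.58% ± 0.235 and 2.21% ± 0.733.

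The order depends on the transcript that is assumed, here the one with the longest coding sequence. With the median length over a gene's coding transcripts, the RNA level of Prkcz rose to 330 CPM per kb and that of Prkci to 77.6, and their RPF levels to 349 and 133, which put Prkcz first in both assays. Another Prkcz transcript has a shorter coding sequence (1227 bases against 1776) but is longer as a whole (4083 bases against 2641). With its lengths Prkcz had 67.6 CPM per kb in RNA and 90.9 in RPF. The place of Prkcd was the sixth under each of these lengths.

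**Figure D1:**
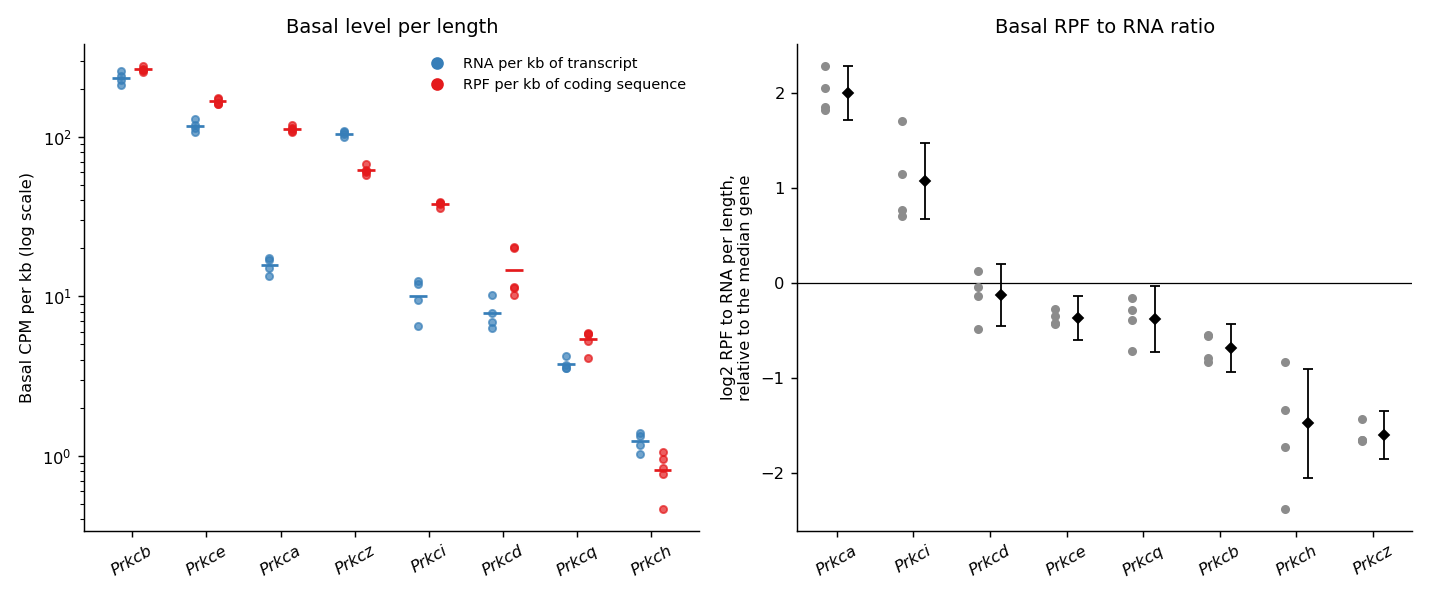
Left, basal CPM per kb (log scale) of the 8 genes in each library, RNA per kb of transcript in blue (4 libraries) and RPF per kb of coding sequence in red (5 libraries), with horizontal bars at the means. Right, log2 ratio of RPF to RNA per length relative to the median gene, with grey points for the 4 replicates and black diamonds with 95% intervals for the fit: Prkca (2.0) and Prkci (1.08) lie above 0 and Prkcz (-1.59) and Prkch (-1.48) furthest below.

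The basal ratio of RPF to RNA, a measure of how many ribosomes an mRNA carried per length, separated the 8 genes. It was tested in edgeR over replicates 1 to 4, which have both libraries, and each gene was taken relative to the median of all 11702 genes tested. Prkca had the highest ratio, 2.0 on the log2 scale (standard error 0.12, adjusted p = 1.01e-06 in edgeR), or 3.99 times that of the median gene, at the percentile 89.1 of all genes. Prkci was also higher, at 1.08 (standard error 0.18, adjusted p = 0.000396 in edgeR). The replicates of both genes were above 0, from 1.82 to 2.28 in Prkca and from 0.71 to 1.70 in Prkci.

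The other genes had ratios at or below that of the median gene. Prkcd was at -0.12 (standard error 0.14, 95% interval -0.45 to 0.20) with an adjusted p of 0.444 in edgeR, and its replicates ran from -0.48 to 0.13, above 0 in 1 of 4. Prkce (-0.37, adjusted p = 0.00884 in edgeR) and Prkcq (-0.38, adjusted p = 0.0446 in edgeR) were lower, as was the conventional isoform Prkcb at -0.68 (adjusted p = 0.00036 in edgeR). Prkch (-1.48, adjusted p = 0.000536 in edgeR) and Prkcz (-1.59, adjusted p = 1.70e-06 in edgeR) had the lowest ratios with these lengths. The share of windows that Prkcz has in common with Prkcz2 is larger in its coding sequence (68%), where RPFs were counted, than in its transcript (33.3%), and its part in this ratio was not tested. The pair of conventional isoforms thus lay on opposite sides of the median gene, and so did the pair of atypical ones.

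In all, 7 of the 8 genes passed an adjusted p of 0.05, 2 higher and 5 lower, but so did 79.2% of all genes tested (39.8% higher and 39.5% lower), so the number of calls is no property of these genes. The size of a ratio rests on the lengths used. With median lengths Prkci was at 0.06 (adjusted p = 0.746 in edgeR) and Prkcz at -0.65, between Prkcq (-0.58) and Prkcb (-0.66). With the Prkcz transcript of 1227 coding bases and 4083 bases as a whole, Prkcz was at -0.41 (adjusted p = 0.00642 in edgeR). Without lengths Prkcd was at 0.42 (adjusted p = 0.0266 in edgeR) and Prkca at 0.92. The transcript of Prkca has 6393 bases of untranslated region in 8409, which enter its RNA length and not its RPF length. Prkcq and Prkce fell short of the threshold when some replicates were left out (adjusted p up to 0.161 and 0.0505 in edgeR), and Prkch, which had 6 counts in the shallowest basal RPF library, could not be tested without replicate 2 or 3.

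After DHPG the 8 genes differed in how far their values moved, and Prkcd had the largest fitted difference in RNA and in RPF, although in RPF Prkch was above it without replicate 3 (0.29 against 0.26). Its basal RNA was 22.5, 18.1, 19.8 and 29.2 CPM in replicates 1 to 4, and its DHPG RNA was 30.6, 39.6, 35.1, 42.3 and 21.4 CPM in replicates 1 to 5. The DHPG library was the higher one in each of the 4 pairs, but the groups overlapped, because the DHPG library of replicate 5, which has no partner, lay within the basal range. The fitted difference was 0.70 on the log2 scale (standard error 0.11 in the edgeR fit), or 1.63-fold, and the pairs ran from 0.43 to 1.11 (SD 0.31).

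The RPFs of Prkcd in basal slices were 21.0, 22.9, 23.3, 41.3 and 41.4 CPM in replicates 1 to 5, and after DHPG they were 29.6, 37.5, 43.1, 56.6 and 29.2 CPM. The basal libraries of replicates 4 and 5 thus stood at nearly the same level as the DHPG libraries of replicates 2 and 3, and the groups overlapped. DHPG was higher in 4 of 5 pairs, by 0.45 to 0.88, and lower in pair 5, by -0.51. The fitted difference was 0.43 (standard error 0.09 in the edgeR fit), or 1.34-fold, while the SD of the 5 pair differences was 0.54. The fitted value was 0.67 without replicate 5 and 0.26 without replicate 3.

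**Figure D2:**
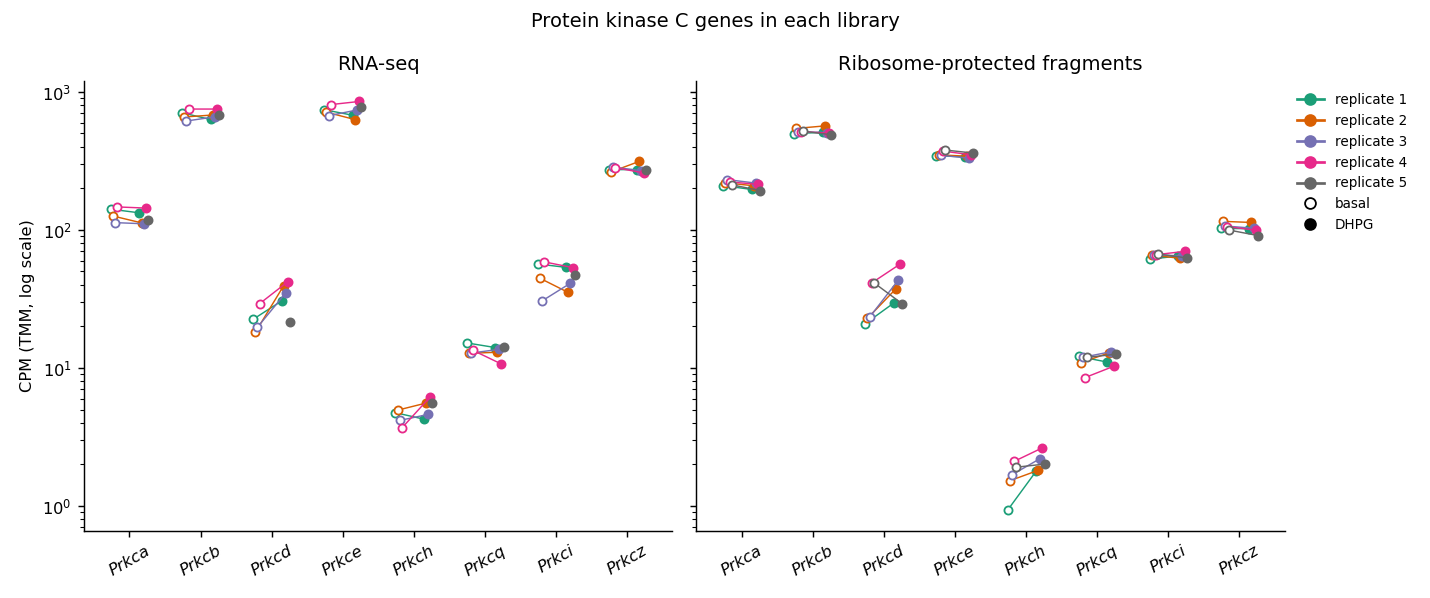
CPM (log scale) of each of the 8 genes in the RNA-seq libraries (left, 4 basal and 5 DHPG) and the RPF libraries (right, 5 and 5), with open circles for basal, filled circles for DHPG, a colour for each replicate number and a line between the libraries of a pair. Prkcd rises along 4 of 4 lines in RNA and 4 of 5 in RPF, with replicate 5 falling from 41.4 to 29.2 CPM, while the lines of Prkcb, Prkce and Prkca are nearly level.

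Prkcd was 1 of 8 genes past the adjusted p threshold in RNA (0.01), where 0.00773% of all 12935 genes tested were called, and again 1 of 8 in RPF (0.05), where 0.22% of 13208 were called (0.182% higher and 0.0379% lower). It was chosen for this, so the counts say nothing further about the genes. Both calls depended on the test. The RNA call was lost without replicate 3, and the RPF call was lost without replicate 1, 2, 3 or 4, one at a time. Neither call was made without the replicate block or in DESeq2 with the block, although the difference kept its sign, between 0.59 and 0.79 in RNA and between 0.26 and 0.67 in RPF, under every alternative.

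The conventional isoforms moved little. Prkca RNA had 141, 126, 113 and 147 CPM in basal replicates 1 to 4 and 133, 113, 111, 144 and 119 CPM in DHPG replicates 1 to 5. Its RPFs had 210, 219, 231, 223 and 212 CPM in basal slices and 197, 209, 219, 214 and 193 CPM after DHPG. In each of the 4 RNA pairs and each of the 5 RPF pairs the DHPG library was the lower one, but the pair differences were small (-0.16 to -0.03 in RNA and -0.14 to -0.06 in RPF) and the groups overlapped.

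The fitted RPF difference of Prkca was -0.09 (standard error 0.03, 95% interval -0.15 to -0.02). It was not called in edgeR, where the adjusted p was 0.258 or more under each alternative, nor in DESeq2 with the block (adjusted p = 0.818), but it was called in DESeq2 after ComBat (adjusted p = 0.00898). Prkcb was the highest of the 8 per length in basal slices when lengths came from the longest coding sequence. Its fitted difference was -0.00 in RNA (95% interval -0.14 to 0.13) and -0.01 in RPF (95% interval -0.07 to 0.05). Prkcb was higher after DHPG in 2 of 4 RNA pairs and 2 of 5 RPF pairs.

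Among the isoforms that respond to diacylglycerol alone, the other 3 did not follow Prkcd in RNA beyond the spread of their pairs. Prkce RNA ranged from 672 to 810 CPM in basal slices and from 631 to 853 after DHPG. Its RPFs were 346, 350, 347, 373 and 380 CPM in basal replicates and 338, 343, 331, 350 and 361 CPM after DHPG, lower in each of the 5 pairs by -0.09 to -0.03, with overlapping groups. The fitted differences of Prkce were -0.02 in RNA (standard error 0.07) and -0.06 in RPF (standard error 0.03), the latter called in DESeq2 after ComBat alone (adjusted p = 0.0367).

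Prkch rested on few reads, 24 to 44 counts per RNA library and 6 to 40 per RPF library. Its RPFs were 0.931, 1.52, 1.68, 2.10 and 1.91 CPM in basal slices and 1.78, 1.81, 2.21, 2.64 and 2.01 CPM after DHPG, higher in each of 5 pairs, with overlapping groups and a fitted difference of 0.32 (95% interval -0.06 to 0.70). In RNA it was at 0.24 (95% interval -0.17 to 0.66). Prkcq was at -0.09 in RNA (95% interval -0.36 to 0.18) and 0.14 in RPF (95% interval -0.03 to 0.30), where 4 of 5 pairs were higher.

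The atypical isoforms, which bind no diacylglycerol, were also close to their basal level. Prkci RNA varied widely among libraries, from 30.6 to 58.7 CPM in basal slices and from 35.2 to 53.6 after DHPG. Its fitted differences were -0.04 in RNA (95% interval -0.24 to 0.16) and -0.02 in RPF (95% interval -0.10 to 0.06). Prkcz was at 0.01 in RNA (95% interval -0.14 to 0.15) and -0.06 in RPF (95% interval -0.13 to 0.01), lower in each of the 5 RPF pairs by -0.13 to -0.01. For none of the 8 genes, Prkcd included, were all DHPG libraries on one side of all basal libraries in either assay, and 0.51% of all genes tested in RNA and 0.394% in RPF were apart in this way.

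**Figure D3:**
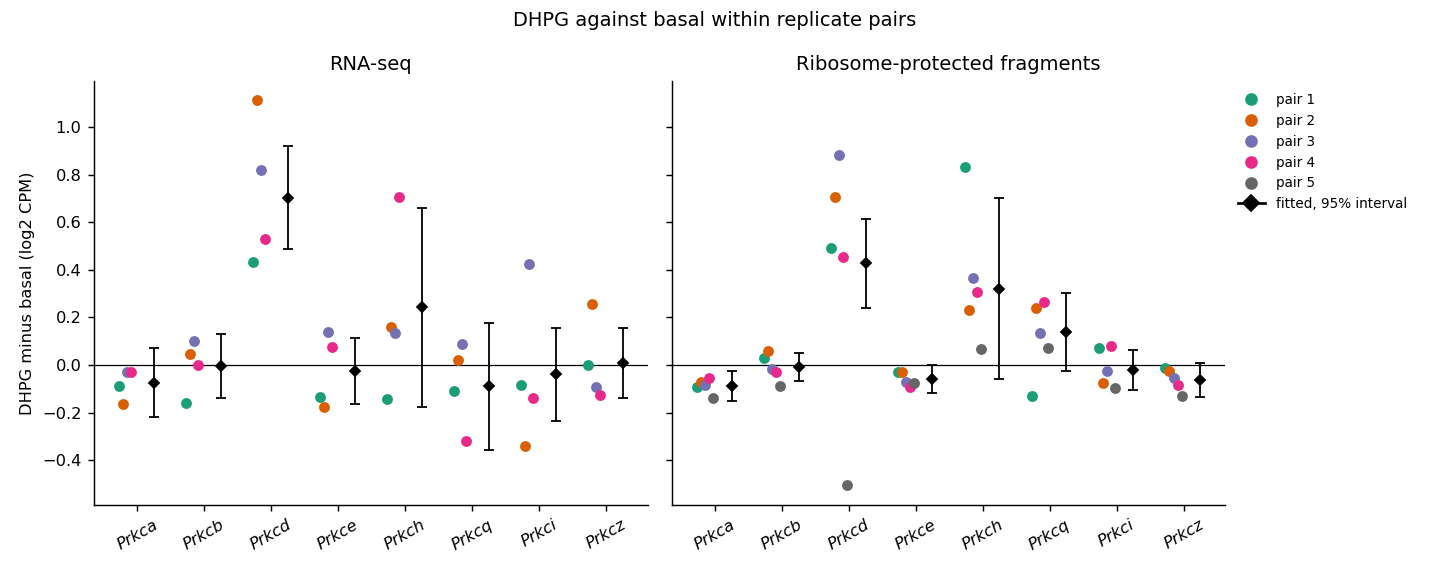
Difference between the DHPG and the basal library of each replicate pair in log2 CPM for the 8 genes, RNA-seq left (4 pairs) and RPF right (5 pairs), with coloured points for the pairs and black diamonds with 95% intervals for the fitted difference. Prkcd lies at 0.70 in RNA and 0.43 in RPF, with pair 5 at -0.51 in RPF, and the fitted values of the other 7 genes lie between -0.09 and 0.32.

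The RPF to RNA ratio, in which a change in ribosome load would show apart from a change in RNA, was compared between treatments, again as a description, in 1 edgeR model of both kinds of library. At an adjusted p of 0.05 it called 0% of the 12691 genes, 860 of which had an unadjusted p under that value, and so none of the 8 kinase genes. Replicate 5 has no basal RNA library, so its RPF pair entered the ratio of each gene without an RNA pair beside it. In that replicate a change in ribosome load cannot be told apart from a change in RNA. Prkcd, whose RPF pair of replicate 5 was at -0.51, had a ratio difference of -0.27 (standard error 0.19, 95% interval -0.67 to 0.12). It was at -0.02 without replicate 5, where RNA and RPF held the same pairs. The other 7 genes lay between -0.07 (Prkcz) and 0.23 (Prkcq).

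The genes around protein kinase C in the pathway were taken from a list of 54 genes by role, of which 52 could be tested, and 0 of the 52 passed in RNA, in RPF or in the ratio. The median difference of the 52 was 0.03 in RNA and -0.01 in RPF, beside 0.01 and 0.00 for all genes tested. By unadjusted p under 0.05 there were 4 genes in RNA, 8 in RPF and 2 in the ratio, where the share over all genes tested was 8.02%, 10.8% and 6.78%. In RNA the smallest p values belonged to Plcb4, a phospholipase C beta isoform, at 0.26 (standard error 0.11, adjusted p = 0.578 in edgeR), and to Dagla, which makes the endocannabinoid 2-AG from diacylglycerol, at 0.17 (standard error 0.07, adjusted p = 0.578 in edgeR).

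In RPF they belonged to Dgkg, a kinase that removes diacylglycerol, at -0.12 (standard error 0.03, adjusted p = 0.124 in edgeR), and to Prkd1, a protein kinase D, at -0.21 (standard error 0.07, adjusted p = 0.264 in edgeR), both lower in 5 of 5 pairs. In the ratio they belonged to the G protein subunit Gna11 at -0.18 and to Unc13c, a synaptic vesicle priming protein, at 0.35 (adjusted p = 0.690 and 0.725 in edgeR).

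RPF levels of the pathway genes differed widely in basal slices. They fell to 0.172 CPM per kb among the inositol trisphosphate receptors and to 0.103 among the other diacylglycerol receptors. Among the highest per length in their roles were the G protein subunit Gnaq (192 ± 11.4 CPM per kb, SD, n = 5), Plcb1 (86.2 ± 4.98), the inositol trisphosphate receptor Itpr1 (48.1 ± 1.99), Dgkg (96.4 ± 8.00) and Dagla (27.7 ± 1.55). The upstream kinase Pdpk1, which encodes PDK1, had 80.6 ± 8.41 CPM per kb, the scaffold Sqstm1 521 ± 52.0, and Chn1, another diacylglycerol receptor, 925 ± 32.3. Nrgn, a neuronal protein kinase C substrate that binds calmodulin, had 3772 ± 259. This was 656 CPM before division by coding length, beside an RNA level of 21.3 CPM per kb. None of these 9 genes passed in either assay, and their RPF differences after DHPG ran from -0.12 (Dgkg) to 0.06 (Dagla).

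Genes whose values followed those of Prkcd over the libraries were sought among the 9415 genes with at least 10 CPM in RPF. Likeness was the root mean square difference of log2 CPM over the 19 libraries, each assay centred on its own mean, for which the median gene was at 0.468. The nearest were Synpo2 (0.256), Amotl1 (0.258), Plekhg1 (0.276), Rora (0.289) and Tcf7l2 (0.302). Synpo2 encodes an actin-binding protein, Amotl1 a cell junction protein, Plekhg1 a protein with a pleckstrin homology domain, Rora a nuclear receptor and Tcf7l2 a Wnt pathway transcription factor. The libraries share the treatment and the replicate numbers, so these distances are a description over 19 points that are not independent.

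All 5 of them are in a list of 20 genes enriched in thalamus, a region next to the hippocampus in which Prkcd is itself well expressed, and the list was drawn up with earlier results of these data known. Most genes of this list were higher after DHPG in the same assays as Prkcd. Since the list was drawn up in this way, its counts and adjusted p values are a description and support nothing. In RNA, 15 of the 16 that could be tested were higher (median 0.29), 12 of them with an unadjusted p under 0.05 and none past the threshold, where 52.1% of all genes tested in RNA were higher and 8.02% had such a p. In RPF, 17 of 18 were higher (median 0.21) and 5 passed, all upward, where 51.4% of all genes tested were higher and 0.182% passed in this direction. These were Zic1 (0.66, adjusted p = 0.00356 in edgeR), Slc17a6, a vesicular glutamate transporter (0.23, adjusted p = 0.0144 in edgeR), Shox2 (1.32, adjusted p = 0.0252 in edgeR), Tcf7l2 (0.31, adjusted p = 0.0299 in edgeR) and Tnnt1 (0.81, adjusted p = 0.0328 in edgeR). Without the replicate block no gene at all was called in RPF. In pair 5 Tnnt1 (-0.64), Zic1 (-0.14) and Slc17a6 (-0.03) were lower after DHPG, and Shox2 (0.19) and Tcf7l2 (0.01) were higher.

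The others that were higher in RPF without passing were Lef1 (0.50), Synpo2 (0.44), Amotl1 (0.30), Plekhg1 (0.21), Rgs16 (0.21), Rora (0.17), Plcb4 (0.16), Ntng1 (0.14), Ramp3 (0.12), Pdp1 (0.11), Lhx9 (0.04) and Adarb1 (0.03). Calb2 was at -0.10, and Gbx2 and Zic4 were too low to be tested. In RNA the largest differences in the list were those of Tnnt1 (1.34), Synpo2 (0.78), Tcf7l2 (0.61), Ramp3 (0.61) and Zic1 (0.60).

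Pair by pair, the list and Prkcd went the same way. The median RNA difference of the list was 0.14, 0.41, 0.36 and 0.39 in pairs 1 to 4, where Prkcd was at 0.43, 1.11, 0.82 and 0.53. The median RPF difference of the list was 0.21, 0.39, 0.30 and 0.35 in pairs 1 to 4, with 15 to 17 of 18 genes higher, and -0.15 in pair 5, with 3 of 18 higher. Prkcd RPFs were at 0.49, 0.71, 0.88 and 0.45 in pairs 1 to 4 and at -0.51 in pair 5.

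Summed over the 20 genes, the list was at 428 to 570 CPM in the basal and 506 to 665 CPM in the DHPG RNA libraries, and at 512 to 616 and 533 to 710 CPM in the RPF libraries. The basal RPF libraries of replicates 4 and 5, where Prkcd was highest, also had the highest sums (616 and 579 CPM, against 512 to 546 in the other 3). Astrocyte markers likewise had their highest basal RPF sums in these replicates (3388 and 3402 CPM, against 2876 to 3372). The other marker lists did not. Gbx2 was at 0 in the basal RNA libraries of replicates 1 and 3, and no other gene of the thalamus list was at 0 in any library. The part of thalamic tissue in the values of Prkcd was not tested.

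**Figure D4:**
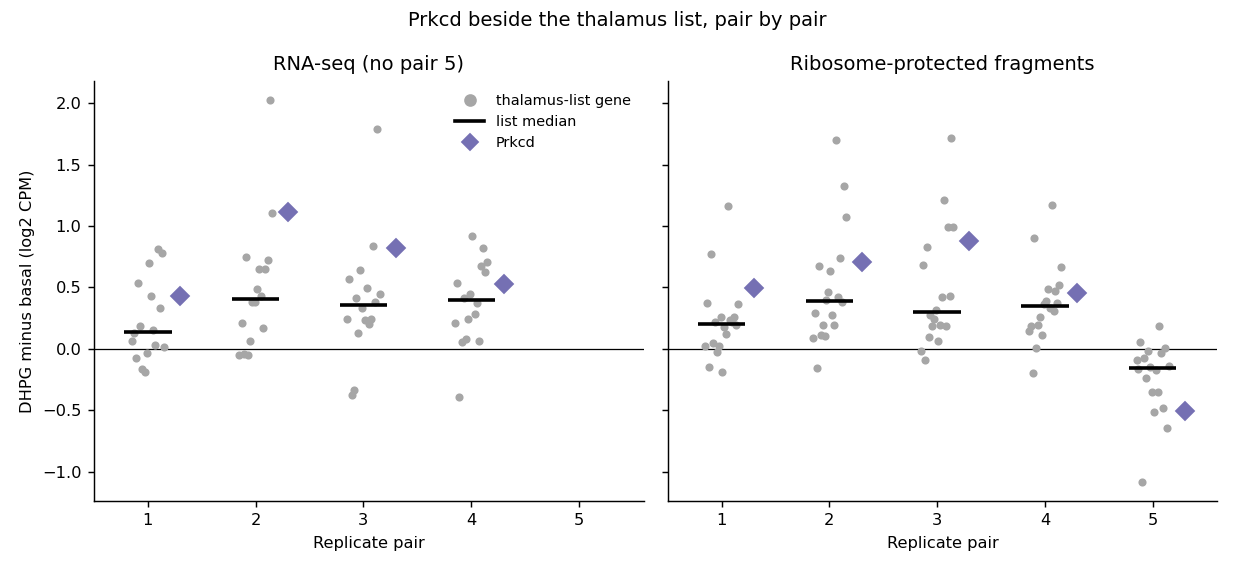
DHPG minus basal in log2 CPM within each replicate pair, RNA-seq left (4 pairs) and RPF right (5 pairs), with grey points for the genes of the thalamus list that could be tested (16 in RNA, 18 in RPF), black bars for their median and violet diamonds for Prkcd. The medians and Prkcd lie above 0 in pairs 1 to 4 of both assays and below 0 in pair 5 of RPF, where the median is -0.15 and Prkcd is at -0.51.

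Markers of hippocampal pyramidal and granule neurons summed to 1313 to 1862 CPM in RNA and 3871 to 4776 CPM in RPF. None of them was at 0 in any library. No other tissue was compared, so these sums are no test of the labelled tissue. All 6 of these markers were higher after DHPG in RNA and 4 of 6 in RPF (medians 0.12 and 0.04), none past the threshold. Oligodendrocyte markers, none of which was at 0 in any library, summed to 2462 to 5282 CPM in the basal and 2812 to 6034 CPM in the DHPG RNA libraries, and to 3988 to 8389 and 4599 to 9449 CPM in the RPF libraries. After DHPG 6 of 6 were higher in RNA (median 0.16), 4 of them with an unadjusted p under 0.05. In RPF 5 of 6 were higher (median 0.09), 3 genes had such a p, and Mag passed upward. Over all genes tested, 52.1% were higher in RNA and 51.4% in RPF, and 8.02% and 10.8% had such a p. In RPF 0.182% of all genes tested passed upward. Their summed RPFs were higher after DHPG in pairs 1 to 4, by 0.01 to 0.21, and lower in pair 5, at -0.13, the same signs as Prkcd, and their part in the values of Prkcd was not tested.

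The remaining lists did not have the signs of Prkcd in every pair. Microglial markers were higher in 4 of 8 in RNA and 8 of 8 in RPF (medians -0.01 and 0.07), and astrocyte markers in 4 of 6 and 6 of 6 (0.02 and 0.03). Interneuron markers were higher in 1 of 6 and 3 of 6 (-0.08 and 0.00). Of the interneuron markers Sst passed upward in RPF, where 0.182% of all genes tested did so. Endothelial markers were higher in 2 of 8 in RNA and 0 of 8 in RPF (-0.14 and -0.18). Of the 6 choroid plexus markers 1 could be tested (0.11 in RNA and 0.14 in RPF), and Kcne2 was at 0 in each of the 9 RNA libraries.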

How the data were processed

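The 19 samples are libraries of RNA-seq or ribosome profiling from wild-type hippocampal slices. In the deposited tables each value is an RSEM expected count of a gene, not normalized, and it was used here rounded to a whole number. Per the labels and the methods, adapters were removed with cutadapt, rRNA and tRNA reads with Bowtie2, the rest was aligned to mm10 with TopHat2, and uniquely mapped reads without duplicates of their molecular identifier were counted, RPFs on RefSeq coding sequences without the first and last 30 nt and RNA on whole transcripts. 12 columns that belong to no sample here were not used. The 8 genes, the pathway roles and the marker lists were chosen with earlier results of these data known.

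For DHPG against basal, edgeR 4.0.16 (R 4.3.3, limma 3.58.1) fitted its quasi-likelihood F test to the genes that filterByExpr kept, with TMM and the replicate number as a block. Benjamini-Hochberg adjusted p values cover every gene in a fit, with thresholds of 0.01 in RNA and 0.05 in RPF, ratio and basal ratio. Libraries with the same replicate number were taken as pairs. They deviated together from their group means (correlations of 0.308 to 0.741 in RNA and 0.259 to 0.523 in RPF). Libraries with different numbers were not compared in this way, so the pairing itself was not tested. Pair differences are of log2 CPM with a prior count of 2. Standard errors and 95% intervals come from the F statistic of the edgeR fit and are not the spread between pairs. The basal ratio took lengths from GENCODE vM21 for 19510 of 20436 genes (95.5%), from the transcript with the longest coding sequence. Sequences came from the same transcripts. The total counts per sample, given above, set the counting error, and nothing beyond the pooled slices of a replicate says how far samples are independent.

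The genes named were the 8 kinases, the 5 nearest to Prkcd, of the pathway those past a threshold, the 2 with the smallest p in each assay and the highest RPF level of each role, and every thalamus gene. The gene of one pathway role is not reported here. Mag and Sst were named after their values were seen. The steps were tested on simulated data. The alternatives were DESeq2's size factors, no filter on low counts, no block, DESeq2 (1.42.0) with the block, ComBat of sva (3.50.0) before DESeq2, other thresholds, other lengths and each replicate left out in turn.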

Additional observations from a re-analysis of the deposited data

Results flagged for a closer look

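Of the 32 groups of 4 or 5 libraries formed by the 8 genes, assays and treatments, 3 held a library set apart from the others by most of the range of its group, where chance alone gives 1.6. Prkcb had 567 CPM in the RPF library of DHPG replicate 2, against 490 to 509 CPM in the other 4, and its basal partner was also the highest of its group. Prkci had 61.5 CPM in the RPF library of basal replicate 1, against 65.7 to 67.0 CPM in the other 4. Prkcz had 314 CPM in the RNA library of DHPG replicate 2, against 259 to 274 CPM in the other 4, and the RPFs of Prkcz in the same replicate were the highest of their group too, at 113 CPM.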

How the results depend on the processing

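The numbers of the 8 genes past the threshold moved as follows. In RNA, 1 gene (Prkcd) became 0 with no replicate block, with DESeq2 and the block, and with ComBat before DESeq2. In RPF, 1 gene (Prkcd) became 0 with no replicate block, with DESeq2 and the block, and at an adjusted p of 0.01, and 2 with ComBat before DESeq2, which were Prkca (-0.09) and Prkce (-0.06), both lower. DESeq2 gave no adjusted p for Prkcd after ComBat in either assay. Leaving out a replicate gave 0 to 1 genes in RNA, 0 to 1 in RPF and 4 to 6 in the basal ratio, against 7 (4 without replicate 2). Over all genes, ComBat before DESeq2 called 103 RNAs and 431 RPFs against 1 and 29, no block called 0 and 0, DESeq2 with the block called 0 and 6, no filter called 7 and 96, and at an adjusted p of 0.01 there were 8 RPFs. Leaving out a replicate gave 0 to 22 RNAs (22 without replicate 2) and 3 to 71 RPFs (3 without replicate 2, 71 without replicate 3).

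The basal ratio of Prkcd turned from -0.12 to 0.42 without lengths, where the length term alone was changed. Other basal ratios fell short of the threshold 9 times over the alternatives, with the sign kept, among them Prkcb without lengths (-0.23). The DHPG difference of the Prkcd ratio moved to -0.02 without replicate 5. Every sign of a called value was kept under the alternatives run. The basal ratio of Prkcd was not called in the main fit (adjusted p = 0.444 in edgeR). The lengths of the Prkcz transcript with 1227 coding bases were chosen after the data were seen. Depth limits Prkch most, at 6 to 44 counts per library.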
